A study of Mus musculus with 54 samples.

Results

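Livers of 54 male C57Bl/6J mice on a high-fat diet were examined for 43 genes of the extracellular matrix and of fibrosis, out of 20162 gene entries measured. The 43 were a given list of symbols: collagens, basement membrane proteins, small proteoglycans, matrix glycoproteins, enzymes that fold and crosslink collagen, proteases with their inhibitors, and genes of activated mesenchymal cells. Each symbol matched 1 entry of the table. From the age of 8 weeks all mice, controls included, ate the high-fat diet for 20 weeks. Each day the exposed mice took a pellet with di-isononyl phthalate (DINP), a plasticizer, and controls (n = 14) took a placebo pellet. The exposed groups, called DINP 1.5 (n = 13), DINP 15 (n = 13) and DINP 150 (n = 14) here, are named by the daily dose in mg per kg of body weight. All mice were wildtype and singly housed, so every sample is a separate animal, and no group on another diet was analysed here. The comparisons ask whether 20 weeks of DINP at each dose went with a change of matrix genes in the liver of mice on this diet.

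The extracellular matrix is the protein scaffold around cells. In liver it is thin, and most of its fibrillar collagen is made by hepatic stellate cells, portal fibroblasts and smooth muscle cells of the vessels, while sinusoidal endothelial cells and hepatocytes add basement membrane proteins and fibronectin. Fibrosis is the build-up of this scaffold after lasting injury: stellate cells activated by transforming growth factor beta make type I and III collagen, the chaperone encoded by Serpinh1 folds it, lysyl oxidases crosslink it, and the balance of metalloproteinases and their tissue inhibitors sets how fast it is removed. The samples were pieces of whole medial lobe, so fewer cells of a type and less RNA per cell cannot be told apart in any value below.

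Values are named as TPM, transcript counts per length and library sum, and are here called normalised TPM. In each mouse they were whole multiples of a single step. They were therefore read as whole-number TPM scaled by a size factor for each mouse. On that reading a value near 1 is a single rounded TPM. The libraries read only the 3′ end of each transcript, and the read depth behind a value is unknown. A test was passed at an adjusted p under 0.05 (limma on log2 of the value plus 1, p-values adjusted by Benjamini-Hochberg over 11431 entries whose mean was at least 1), and a log2 fold change is on that scale, which understates changes of low genes. Hepatocyte genes were high in every sample, with Alb, the gene of serum albumin, from 11410.2 to 24586. Totals of the normalised values ran from 747258 to 1076439 per mouse. On the same reading totals follow the size factor, since the whole-number TPM of every mouse summed to nearly the same number (948342 to 980641).

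A few upstream regions are shown because their genes carry the patterns described below: Col3a1 and Timp1 for the mice that stood apart together, and Serpinh1 for the DINP 150 group. Each is the 250 bases before the transcription start from RefSeq on GRCm38.p6, written 5′ to 3′, with motif letters in capitals.
Col3a1, chr1:45311288-45311537, plus strand: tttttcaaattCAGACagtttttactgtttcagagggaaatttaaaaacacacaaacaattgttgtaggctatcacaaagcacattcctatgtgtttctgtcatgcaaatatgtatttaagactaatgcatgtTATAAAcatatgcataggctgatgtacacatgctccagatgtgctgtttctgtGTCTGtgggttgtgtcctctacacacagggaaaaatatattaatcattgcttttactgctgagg
Timp1, chrX:20869916-20870165, plus strand: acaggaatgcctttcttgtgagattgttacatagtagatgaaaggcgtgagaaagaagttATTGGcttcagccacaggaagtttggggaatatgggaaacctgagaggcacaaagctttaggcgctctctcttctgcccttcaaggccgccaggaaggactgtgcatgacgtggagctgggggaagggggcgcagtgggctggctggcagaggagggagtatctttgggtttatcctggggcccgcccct
Serpinh1, chr7:99353240-99353489, minus strand: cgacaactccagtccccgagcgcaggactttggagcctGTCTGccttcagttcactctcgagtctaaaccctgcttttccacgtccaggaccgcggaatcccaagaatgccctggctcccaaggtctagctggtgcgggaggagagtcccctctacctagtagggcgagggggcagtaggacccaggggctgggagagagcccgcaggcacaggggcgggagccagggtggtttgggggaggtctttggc
The motifs searched on both strands were the SMAD core letters CAGAC and the longer palindromic SMAD element, the CCAAT box, the TATA box letters TATAAA, the AP-1 letters TGANTCA and the response element of peroxisome proliferator-activated receptors. No matches in the regions shown overlapped. Col3a1, which encodes the chain of type III collagen, held TATAAA at 117 bases before the start and CAGAC or its reverse complement at 239 and 64 bases. Timp1, an inhibitor of metalloproteinases, held the reverse complement of CCAAT at 190 bases, and Serpinh1 that of CAGAC at 212 bases. Of the 31 members with an upstream region in the RefSeq table, 16 held CAGAC, or 47.1% of their 34 regions against 42.2% of all 32851 regions. CCAAT stood in 29.4% against 33.8%, TATAAA in 11.8% against 12.4%, and TGANTCA in 2.94% against 6.75%. Neither the palindromic SMAD element nor the receptor element was found in a member's region, and they stood in 0.167% and 0.0335% of all regions.

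In normalised TPM, which is per transcript length and so understates long transcripts in 3′ libraries, the members spanned levels from 0 to 439.6. Highest were Dcn (decorin, a small proteoglycan on collagen fibrils), with a mean of 147 over the 54 mice, and Sparc (a collagen-binding matricellular protein), with 141. Fn1 (fibronectin) followed at 66.3 and Col18a1 (a basement membrane collagen, the source of endostatin) at 61.5. Another 11 members had means of 5 to 50, led by Bgn (biglycan) at 21.0 and Timp2 at 15.2, and 23 had means of 1 to 5. The remaining 5 were under the mean of 1 needed for a test, so 38 members were tested. Of these 5, Lox, a lysyl oxidase that crosslinks collagen, was listed at 0 in all mice but 1 at DINP 15. Des (desmin), Col6a2, Col5a2 and Fbn1 (fibrillin-1) had means of 0.802, 0.636, 0.376 and 0.205, and at DINP 150 none of these 4 passed a single rounded TPM in any of 14 mice.

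A set of 7 mice stood apart in the matrix genes: replicates 8 and 9 of the controls, replicates 4, 9, 10 and 13 at DINP 1.5, and replicate 7 at DINP 15. These are the 7 samples whose totals were under 900000 (747258 to 885178), and no mouse at DINP 150 was among them. They held the 7 highest values of Col1a1, which encodes the main chain of type I collagen: 29.0 and 13.2 in controls, 12.5, 14.3, 11.2 and 10.7 at DINP 1.5, and 23.0 at DINP 15. The other 47 mice ran from 0 to 5.62. All 7 highest values also came from these mice for Col1a2, Col3a1, Col5a1, Dcn, Bgn and Emilin1. At least 5 of the 7 highest values came from them in 23 of 38 members (60.5%), against 3.21% of all 11431 genes tested. For Fn1 and Col18a1, none of the 7 highest values did.

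Control replicate 8 had the highest value of its group in 30 of 38 members, against 16.5% of all genes tested, and replicate 7 at DINP 15 in 28 of 38, against 16.0%. In these 2 mice Timp1, an inhibitor of metalloproteinases that is induced in liver injury, reached 12.2 and 19.5, while its median was 0 in all 4 groups. At DINP 150 the mouse most often highest was replicate 12, in 16 of 38 members against 8.58% of all genes, with a Col1a1 value of 4.14 and a Sparc value of 225.

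Other genes moved with the matrix genes in these mice. The summed level of 11 macrophage markers was 312 and 325 in control replicates 8 and 9 against a control median of 109, and 271 in replicate 7 at DINP 15 against a median of 112. Cholangiocyte markers (bile duct epithelium, 7 of 8 in the table) summed to 154 in control replicate 8 and 255 in replicate 7 at DINP 15, against group medians of 21.3 and 20.1. Of the 7, 3 were tested, and 3 in controls and 4 at DINP 15 were at a median of 0. Krt19, a defining bile duct keratin, was 3.82 and 1.77 in these mice, the highest of its group in control replicate 8. Spp1 (osteopontin), which other cells also make, was the highest of its group in both, and Sox9 was in replicate 7 at DINP 15. All 3 tested markers were above the group median in both mice. In the 4 mice at DINP 1.5 the macrophage sums were 134 to 190.5 and the cholangiocyte sums 37.6 to 69.0, against medians of 119 and 18.1. The 10 portal fibroblast markers other than the member Eln, 7 of them at a control median of 0, summed to 37.5, 33.6 and 33.7 in control replicates 8 and 9 and replicate 7 at DINP 15, against medians of 8.66 and 10.1. In the 4 mice at DINP 1.5 they summed to 20.5 to 24.2, against 15.7. The 11 markers of other leukocytes summed to 54.3 and 44.2 in control replicates 8 and 9 and 65.6 in replicate 7 at DINP 15, the 2 highest control sums and the highest of its group, against medians of 21.0 and 17.3, and to 15.8 to 42.0 in the 4 mice at DINP 1.5, against 17.5. Of 6 mesothelial markers, 4 were at a median of 0 in controls and 5 at DINP 15, and the 1 tested was Krt8, a keratin that hepatocytes and bile duct also make and that was highest of its group in both control replicate 8 and replicate 7 at DINP 15. The 6 summed to 36.7 and 79.8 in these mice, against medians of 15.0 and 15.5. The stellate cell markers outside the member list (13 genes) summed in control replicates 8 and 9 and replicate 7 at DINP 15 to 178, 177 and 155, below the group medians of 183 and 185, but single markers differed. Lrat, the enzyme that stores vitamin A in stellate cells, was 7.64, 7.95 and 11.5 in them, above the highest other mouse of each group (7.03 in controls and 9.03 at DINP 15). Of the 9 stellate markers tested, 5, 4 and 4 were above the group median in these mice. In replicates 4, 9, 10 and 13 at DINP 1.5 the stellate sums were 196.7, 181.9, 178.7 and 188.8. The median of that group was 187.4, so replicates 4 and 13 lay above it. Alb was 11410.2 in control replicate 8 and 13335 in replicate 7 at DINP 15, the lowest of each group. The part of these cells, and of the totals, in the values of the members was not tested, and the counts against control are given with and without the 7 mice.

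**Figure D1:**
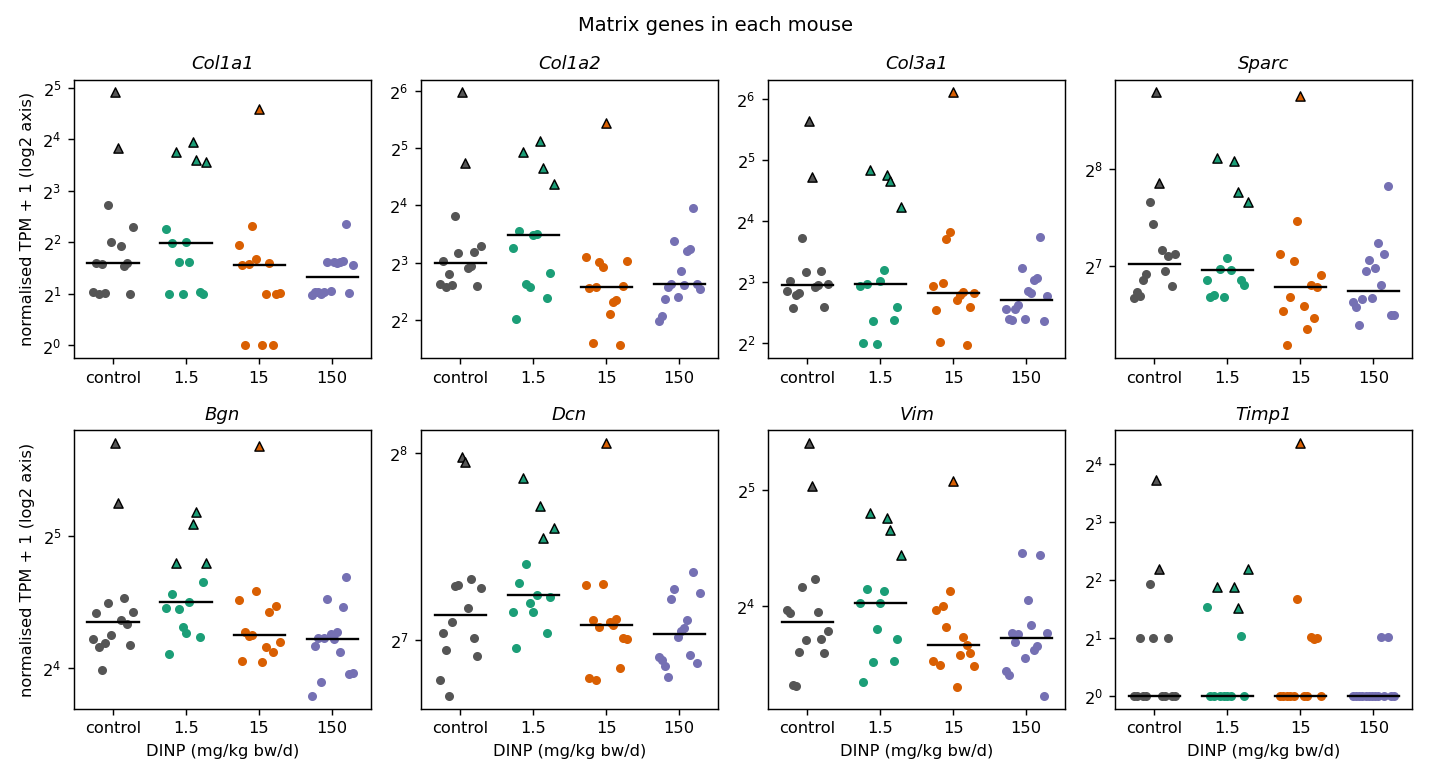
Normalised TPM plus 1 (log2 axis) of 8 matrix genes in each mouse, by DINP group in mg/kg bw/d. Each point is 1 mouse, a triangle marks a mouse whose total was under 900000, and a line marks the group median. For Col1a1 the triangles lie at the top of the control, 1.5 and 15 groups, and no mouse at DINP 150 reached a Col1a1 value above 4.14.

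At the higher doses most members had log2 fold changes below 0, and few passed the test one by one. At DINP 1.5 against control, 19 of 38 members had a log2 fold change below 0 (49.3% of all genes did), and the median was 0.00091. At DINP 15 it was 30 of 38 (all genes 50.1%), with a median of -0.22 against -0.0010 for all genes. Of the members at DINP 150, 34 of 38 were below 0 (all genes 51.8%), and the median was -0.26 against -0.0081. The 3 comparisons share the control mice.

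With limma, no member passed at DINP 1.5, where 1.20% of all genes did, and 1 member had an unadjusted p under 0.05 (12.3% of all genes). With DINP 15 Fscn1 and Timp2 fell and Fn1 rose, so 3 of 38 passed, a smaller share than among all genes, of which 14.2% did (6.61% lower and 7.57% higher). At DINP 150 Serpinh1 and Emilin1 fell, 2 of 38 (5.26%), where 2.17% of all genes passed (0.682% lower). The authors had already listed both among the genes most lowered at this dose. Since the members were chosen with earlier results of these data known, this share is not independent of those results. At an unadjusted p under 0.05 there were 7 of 38 members at DINP 15 (all genes 27.0%) and 9 of 38 at DINP 150 (all genes 14.0%). When a log2 fold change beyond 0.5 was also required, 0 members passed at DINP 1.5 (0.367% of all genes), 2 at DINP 15 (3.72%) and 1 at DINP 150 (0.840%). No member passed against control at more than 1 dose, and the share of all genes that did was not counted.

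Without the 7 mice, the median at DINP 150 was nearer 0: 31 of 38 members were below 0 with a median of -0.11. With DINP 15, 30 were below 0 with a median of -0.15, and at DINP 1.5 22 with a median of -0.059. Timp2 was then the member called at DINP 15 (10.8% of all genes), and Serpinh1, Emilin1 and Fn1 were called lower at DINP 150 (2.09%). Of the 7 mice, 2 were controls and 0 were at DINP 150, and they held the highest values of many members. The move of the DINP 150 median toward 0 therefore followed largely from which mice were left out. With log2 of the total as a covariate in all 54 mice, 15 of 38 members were below 0 at DINP 150 (median 0.044) and 22 at DINP 15 (median -0.057). At DINP 150 Fn1 was then the 1 member called (2.34% of all genes), and at DINP 15 none was (12.0%). Totals differed between the groups, with medians of 964762 in controls, 953524 at DINP 1.5, 968701 at DINP 15 and 1003642 at DINP 150. A fit with the total as a covariate can therefore take out part of a dose difference, and it cannot tell total and dose apart. The comparison of DINP 15 with control was also sensitive to replicate 7 at DINP 15, without which 5 members were called in place of 3. The share of all genes called in that fit was not counted. In the mice with low totals, a low total and high matrix gene values cannot be told apart.

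**Figure D2:**
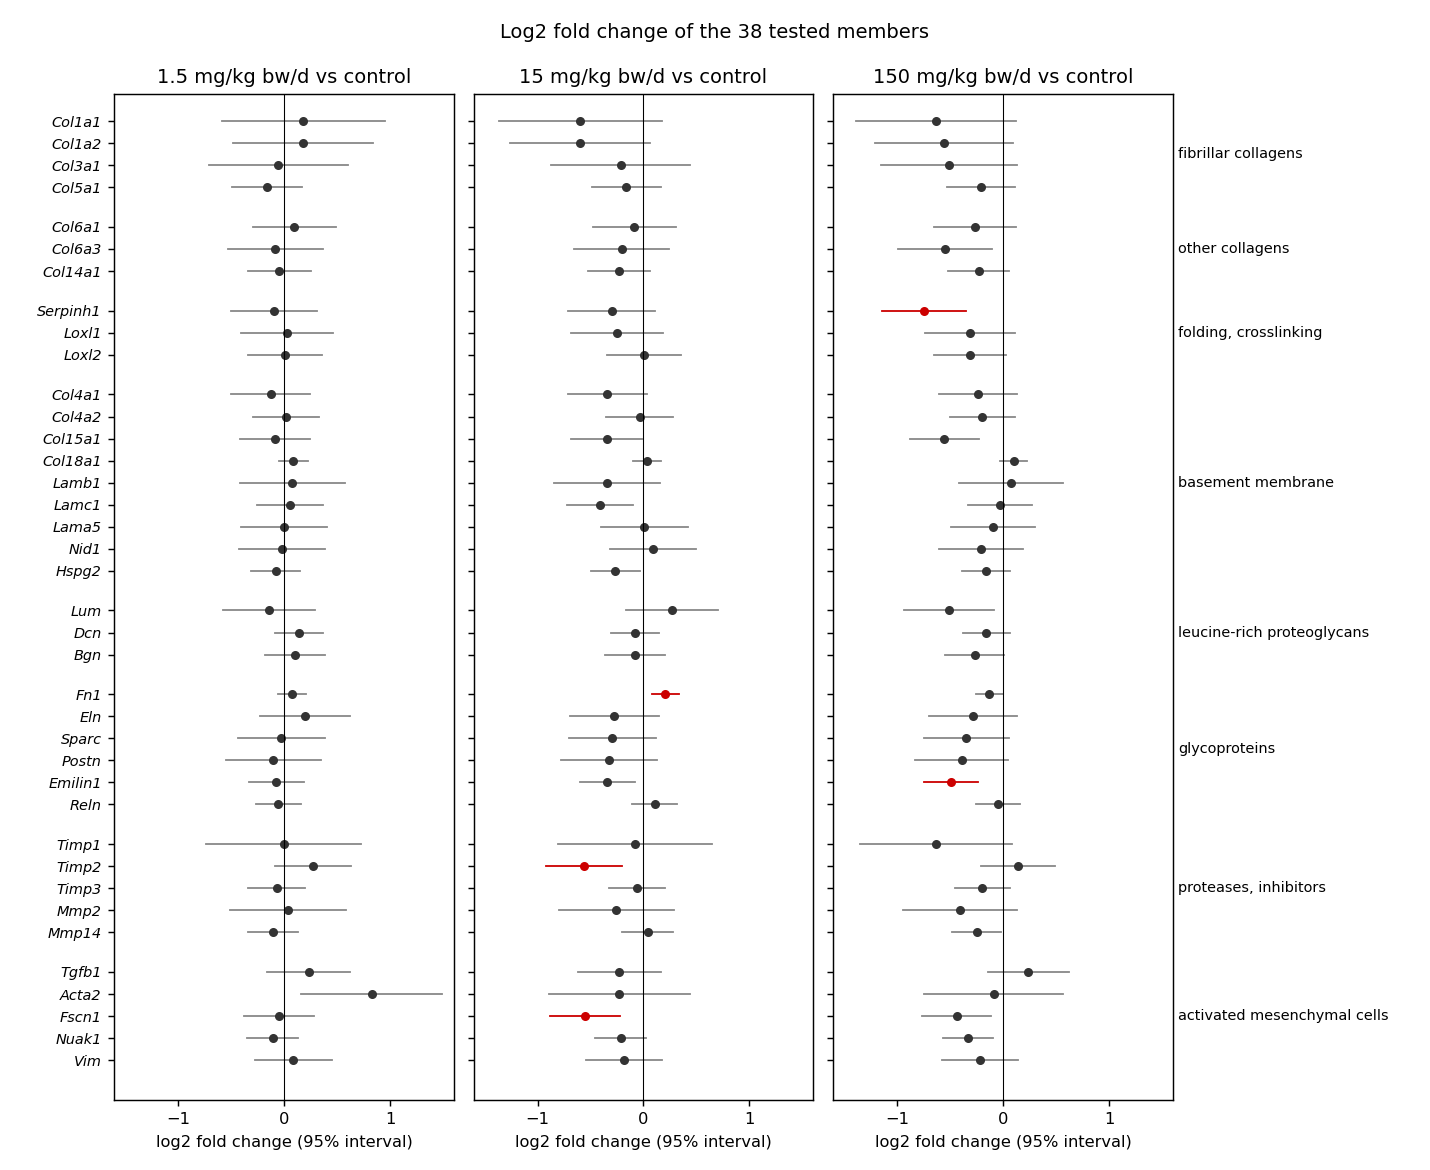
Log2 fold change of each of the 38 tested members against control at DINP 1.5, 15 and DINP 150 (log2 of normalised TPM plus 1), with 95% intervals, ordered by role. Red marks an adjusted p under 0.05: none at DINP 1.5, Fn1, Fscn1 and Timp2 at DINP 15, and Serpinh1 and Emilin1 at DINP 150.

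**Figure D3:**
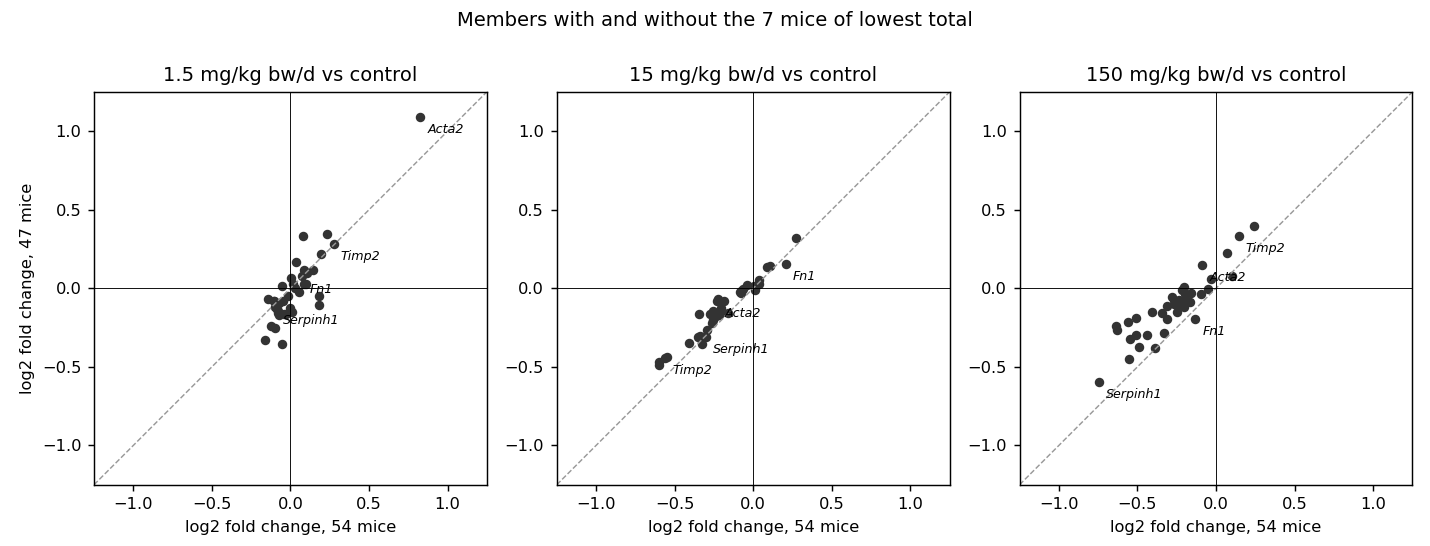
Log2 fold change against control of the 38 tested members in the fit of all 54 mice (horizontal) and in the fit of the 47 mice with totals of at least 900000 (vertical). The dashed line marks equal values, and the DINP 150 panel lies mostly above it, with the median going from -0.26 to -0.11.

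Fibrillar collagens, the rope-like collagens of scars, did not pass the test at any dose. Col1a1 had a lowest, median and highest value of 0.993, 2.03 and 29.0 in controls, 0.992, 2.94 and 14.3 at DINP 1.5, 0, 1.95 and 23.0 at DINP 15 and 0.984, 1.50 and 4.14 at DINP 150. The median was highest at DINP 1.5, above 13 of 14 mice at DINP 150 with a log2 fold change of -0.81 (adjusted p = 0.245), and the groups overlapped. Without the 7 mice this difference was -0.14 (adjusted p = 0.825). The median at DINP 1.5 was then 2.06, against 2.00 in controls. At 150 against control the log2 fold change was -0.63 (adjusted p = 0.461), and without the 7 mice it was -0.24 (adjusted p = 0.715). Col1a2, the partner chain of type I collagen, ran through 4.96, 6.93 and 61.9 in controls and 2.95, 5.15 and 14.5 at DINP 150, a log2 fold change of -0.56 (adjusted p = 0.448). At DINP 15 its values were 1.93, 4.97 and 42.5, with a log2 fold change of -0.60 (adjusted p = 0.236). All Col1a2 values but that of replicate 7 lay at or under 7.61 in that group. Col3a1 ranged over 4.96, 6.78 and 48.9 in controls and 4.15, 5.52 and 12.4 at DINP 150 (log2 fold change -0.51, adjusted p = 0.502). Its highest value of all mice, 68.2, was in replicate 7 at DINP 15. Col5a1, which sets fibril diameter, was near a single rounded TPM, and its log2 fold change at DINP 150 was -0.21 (adjusted p = 0.613). In the other 47 mice, the values at DINP 150 were -0.22 (adjusted p = 0.686) for Col1a2, -0.19 (adjusted p = 0.679) for Col3a1 and -0.12 (adjusted p = 0.797) for Col5a1.

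Of the collagens that decorate fibrils or form beaded filaments, Col6a1 and Col6a3 were near a single rounded TPM and Col14a1 was higher, and none of the 3 passed at any dose. Col14a1, a fibril-associated collagen, was at 15.8 ± 5.70 (SD, n = 14) in controls and 13.1 ± 2.85 (n = 14) at DINP 150 (log2 fold change -0.23, adjusted p = 0.501). Col6a3, a chain of type VI collagen (chr1:90765923-90843971, minus strand, GRCm38), reached 2 or more rounded TPM in 5 of 14 control mice, 4 of 13 at DINP 1.5, 1 of 13 at DINP 15 and 0 of 14 at DINP 150. Its highest values were 6.12 in control replicate 8 and 6.20 in replicate 7 at DINP 15, while at DINP 150 the highest was 1.07. The log2 fold change at DINP 150 was -0.55 (adjusted p = 0.210), and -0.32 (adjusted p = 0.355) without the 7 mice. Col6a1, its partner chain, gave -0.26 (adjusted p = 0.575), and -0.074 without those mice, where Col14a1 was -0.10.

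Serpinh1 fell at DINP 150. It encodes HSP47, the chaperone of the endoplasmic reticulum that folds procollagen (chr7:99345376-99353239, minus strand, GRCm38; the sequence before its start is given above). Its lowest, median and highest values were 2.98, 5.28 and 13.0 in controls, 3.02, 4.48 and 9.31 at DINP 1.5, 1.02, 4.03 and 17.7 at DINP 15 and 0.984, 3.07 and 4.18 at DINP 150. Every mouse at DINP 150 lay at or under 4.18, below the median of the controls and of the DINP 1.5 group, though the groups overlapped. The drop at DINP 150 was a log2 fold change of -0.75 (SE 0.20, adjusted p = 0.0296), and -0.60 (adjusted p = 0.0313) without the 7 mice. At DINP 15 it was -0.30 (adjusted p = 0.352), and at DINP 1.5 -0.096 (adjusted p = 0.906). Leaving out 1 mouse lost the call 4 times: control replicate 2 (adjusted p = 0.0505), 8 (0.0654) or 9 (0.0541), or replicate 1 at DINP 150 (0.0576). With log2 of the total as a covariate the log2 fold change was -0.42 (adjusted p = 0.260). Loxl1 and Loxl2, lysyl oxidase-like crosslinking enzymes, did not pass, with log2 fold changes of -0.31 and -0.31 at DINP 150 (-0.11 and -0.20 without the 7 mice) and highest values of 2.09 and 2.07 in that group.

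Basement membrane members form the thin sheets under epithelium and around vessels, and none of 9 passed against control at any dose. Lamc1, the gamma chain shared by most laminins (chr1:153218922-153332786, minus strand), was 3.12, 8.89 and 16.1 (lowest, median, highest) in controls and 6.07, 8.95 and 13.4 at DINP 1.5. It was 2.98, 6.11 and 8.05 at DINP 15 and 4.15, 8.32 and 11.4 at DINP 150. At DINP 15 all 13 mice were below the control median, with a log2 fold change of -0.41 (SE 0.16, adjusted p = 0.0688). Against DINP 1.5 the DINP 15 group was lower, -0.46 (adjusted p = 0.0297), a call that was lost without the 7 mice, -0.33 (adjusted p = 0.181), and in single fits without replicates 4 or 9 at DINP 1.5 or replicates 8 or 9 at DINP 15 (adjusted p of 0.0549, 0.0586, 0.0553 and 0.0698). The call was also lost with the total as a covariate, -0.33 (adjusted p = 0.0916), and in 6 of 13 alternative settings in all. From DINP 15 to DINP 150 Lamc1 was 0.38 (adjusted p = 0.0771), and passed as higher without the 7 mice, 0.41 (adjusted p = 0.0481). Lamb1, a laminin beta chain, lay at 5.52 ± 2.82 (SD, n = 14) in controls and 4.26 ± 2.60 (n = 13) at DINP 15, -0.34 (adjusted p = 0.392). Without the 7 mice the Lamb1 value was -0.16 (adjusted p = 0.754). Lama5, a laminin alpha chain, Nid1 (nidogen, which links laminin to type IV collagen) and Hspg2 (perlecan) had log2 fold changes of 0.0090, 0.087 and -0.26 at DINP 15. In the other 47 mice they were -0.0093, 0.14 and -0.22. Col15a1, a collagen at the border of basement membranes (chr4:47208161-47313167, plus strand), reached 2 or more rounded TPM in 9 of 14 control mice, 7 of 13 at DINP 1.5, 3 of 13 at DINP 15 and 2 of 14 at DINP 150. Its log2 fold change at DINP 150 was -0.55 (adjusted p = 0.0551), and -0.45 (adjusted p = 0.138) without the 7 mice. Col15a1 passed in 4 of 12 alternative settings, over which its log2 fold change ran from -1.26 to -0.19. Leaving out 1 mouse at a time made it pass in 7 of 28 fits, with the lowest adjusted p, 0.0320, without replicate 6 at DINP 150.

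Col4a1 and Col4a2, the chains of type IV collagen, start beside each other on opposite strands of chromosome 8. Col4a1 was at 5.85 ± 2.91 (SD, n = 14) in controls, 5.21 ± 2.20 (n = 13) at DINP 1.5, 4.56 ± 3.29 (n = 13) at DINP 15 and 4.64 ± 1.68 (n = 14) at DINP 150. Col4a2 was lower, at 2.44 ± 1.35 in controls and 1.92 ± 0.712 at DINP 150. Neither passed, with log2 fold changes of -0.23 and -0.19 at DINP 150, and -0.073 and -0.039 without the 7 mice. Col18a1 varied little, with 48.2, 59.5 and 75.9 in controls and 56.3, 62.6 and 75.9 at DINP 150, and its log2 fold change there was 0.099 (adjusted p = 0.522).

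Small leucine-rich proteoglycans coat collagen fibrils, and Lum (lumican) was the one of 3 that passed a comparison. Lum (chr10:97565128-97572703, plus strand) reached 2 or more rounded TPM in 5 of 14 control mice, 4 of 13 at DINP 1.5, 8 of 13 at DINP 15 and 1 of 14 at DINP 150. Its lowest, median and highest values were 0.935, 1.01 and 5.35 in controls, 0.896, 1.03 and 3.58 at DINP 1.5, 0.951, 2.01 and 11.5 at DINP 15 and 0, 1.03 and 2.05 at DINP 150. From DINP 15 to DINP 150 the change in Lum was a log2 fold change of -0.78 (SE 0.22, adjusted p = 0.00680); without the 7 mice, replicate 7 at DINP 15 among them, it was -0.62 (adjusted p = 0.00329). A Wilcoxon rank-sum test did not pass it (adjusted p = 0.250), and with a pseudocount of 0.1 or 5 in place of 1 the value was -1.55 or -0.32. Against control Lum was -0.51 (adjusted p = 0.230) at DINP 150, and -0.29 (adjusted p = 0.406) without the 7 mice. Dcn was 103, 139 and 252 in controls and 111, 129.8 and 164 at DINP 150, -0.16 (adjusted p = 0.561). Bgn was 14.8, 19.4 and 51.2 and 12.8, 17.7 and 24.8, -0.27 (adjusted p = 0.386). With the 7 mice left out, Dcn was -0.028 (adjusted p = 0.917) and Bgn -0.098 (adjusted p = 0.656) at that dose.

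Fn1 rose at DINP 15. Hepatocytes make fibronectin for the blood, and other liver cells deposit it in the matrix (chr1:71585520-71653200, minus strand). Its lowest, median and highest values were 46.8, 65.9 and 74.0 in controls, 56.9, 67.8 and 86.1 at DINP 1.5, 64.7, 73.5 and 98.4 at DINP 15 and 53.2, 58.5 and 64.4 at DINP 150. At DINP 15 it rose, a log2 fold change of 0.21 (SE 0.064, adjusted p = 0.0221), with 11 of 13 mice above the control median. At DINP 150 all 14 mice were below the control median, with a log2 fold change of -0.13 (adjusted p = 0.328). The 2 lowest control values, 50.5 and 46.8, were in replicates 8 and 9. Without the 7 mice the DINP 150 group was lower, -0.20 (adjusted p = 0.0445), and the rise at DINP 15 did not pass, 0.16 (adjusted p = 0.0708). It also did not pass without control replicate 9 (adjusted p = 0.0511) or without replicate 8 at DINP 15 (0.0594). Between the DINP 15 and DINP 150 groups the values did not overlap, with a highest value of 64.4 at DINP 150 and a lowest of 64.7 at DINP 15, and the difference was a log2 fold change of -0.34 (SE 0.064, adjusted p = 1.17e-04). That comparison called 20.0% of all genes, and the share of all genes without overlap was not counted.

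Emilin1, an elastic-fibre glycoprotein that binds the transforming growth factor beta precursor (chr5:30913402-30921277, plus strand), fell at DINP 150. At least 3 rounded TPM were listed in 12 of 14 control mice, 9 of 13 at DINP 1.5, 3 of 13 at DINP 15 and 2 of 14 at DINP 150. Its values ran through 2.01, 2.97 and 6.12 in controls and 0.988, 2.06 and 3.14 at DINP 150, a log2 fold change of -0.49 (SE 0.13, adjusted p = 0.0224). Without the 7 mice it was -0.37 (adjusted p = 0.0400). It did not pass with the total as a covariate, -0.31 (adjusted p = 0.190), or in a Wilcoxon rank-sum test (adjusted p = 0.0767). At DINP 15, where 12 of 13 mice were below the control median, it was -0.34 (adjusted p = 0.0670). Sparc had medians of 129 in controls, 124 at DINP 1.5, 109 at DINP 15 and 106 at DINP 150, with highest values of 439.6, 275, 429.8 and 225. It did not pass, with -0.35 (adjusted p = 0.446) at DINP 150 in all mice and -0.16 (adjusted p = 0.642) in the 47 with higher totals, and neither did Postn (periostin, -0.39), Eln (elastin, -0.28, and -0.055 in those 47) or Reln (reelin, a stellate cell product, -0.050).

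Timp2, among the proteases and inhibitors, was lowest at DINP 15. TIMP-2 inhibits metalloproteinases and also helps MMP-14 to activate MMP-2 (chr11:118301069-118355740, minus strand). Its lowest, median and highest values were 7.27, 13.0 and 35.9 in controls, 10.9, 16.5 and 27.0 at DINP 1.5, 4.42, 8.16 and 17.7 at DINP 15 and 11.9, 15.5 and 23.0 at DINP 150. At DINP 15 the median was the lowest of the 4 groups, and replicate 7, the mouse with high collagens, held the highest value there. The drop against control was a log2 fold change of -0.56 (SE 0.18, adjusted p = 0.0244), against DINP 1.5 it was -0.84 (adjusted p = 6.01e-04), and from DINP 15 to DINP 150 Timp2 rose by 0.71 (adjusted p = 0.00293). No mouse at DINP 150 was below the DINP 15 median. Without the 7 mice these were -0.44 (adjusted p = 0.0487), -0.73 (adjusted p = 0.00162) and 0.78 (adjusted p = 1.33e-04). The call against control was lost in single fits without control replicate 8 or 9 or without replicate 5 or 8 at DINP 15 (adjusted p of 0.0569, 0.0540, 0.0536 and 0.0620). Both comparisons between doses also passed with the total as a covariate, while the one against control did not (adjusted p = 0.0708).

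The other members of that group did not pass. Mmp14, the membrane-bound collagenase MT1-MMP (chr14:54431612-54445364, plus strand), was 7.82, 10.6 and 16.8 in controls and 6.21, 9.28 and 12.5 at DINP 150, -0.25 (adjusted p = 0.313), and -0.29 (adjusted p = 0.0794) from DINP 15 to DINP 150. Without the 7 mice the Mmp14 values were -0.15 (adjusted p = 0.543) and -0.21 (adjusted p = 0.148). Mmp2 (gelatinase A) gave -0.41 (adjusted p = 0.522) and Timp3, a matrix-bound inhibitor, -0.19 (adjusted p = 0.534) at DINP 150, and -0.15 and -0.071 without the 7 mice. Timp1 was listed at 0 in 8 of 14 control mice and in 12 of 14 at DINP 150. It was above 1 rounded TPM in 3 control mice, 5 at DINP 1.5, 2 at DINP 15 and 0 at DINP 150.

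Acta2, smooth muscle actin, is the classic mark of activated stellate cells and is also high in smooth muscle of vessels (chr19:34241090-34255590, minus strand). Its lowest, median and highest values were 0.936, 2.01 and 10.6 in controls, 0.992, 4.47 and 49.1 at DINP 1.5, 0.967, 1.95 and 5.32 at DINP 15 and 0.970, 2.06 and 5.22 at DINP 150. Replicates 3 and 8 at DINP 1.5, with 49.1 and 30.9, were far above all other mice, and neither was among the 7 mice with high collagens. In these 2 mice Tagln, a smooth muscle protein, was 28.5 and 17.5 and Myl9, a smooth muscle myosin light chain, 10.8 and 9.26, the 2 highest values of each gene over all mice. Their Col1a1 values were 2.94 and 2.06. Tpm2, a tropomyosin of smooth muscle, was 23.5 and 16.5 against a group median of 15.2, ranks 12 and 24 of the 54 mice. Without Acta2 itself, 7 smooth muscle markers summed to 84.4 and 56.6 in these mice against a group median of 20.6, with Myh11, Cnn1, Lmod1 and Actg2 at a median of 0 in all groups. This sum was also high without a high Acta2. It was 73.0 in replicate 2 at DINP 15, where no mouse had Acta2 above 5.32, and 48.9 in control replicate 2, with an Acta2 value of 4.08. Acta2 was 0.83 (adjusted p = 0.260) at DINP 1.5 against control and was lower at DINP 15 than at DINP 1.5, -1.05 (adjusted p = 0.0200). Without replicate 3 or replicate 8 that comparison did not pass, at -0.81 (adjusted p = 0.0522) and -0.86 (adjusted p = 0.0515). The part of smooth muscle in the Acta2 values was not tested.

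Fscn1 (fascin, an actin-bundling protein; chr5:142960343-142973185, plus strand) fell at DINP 15. Its lowest, median and highest values were 2.04, 4.04 and 10.7 in controls, 2.06, 4.06 and 7.16 at DINP 1.5, 0.967, 3.01 and 4.07 at DINP 15 and 1.98, 3.09 and 5.18 at DINP 150. All but 1 of the 13 mice at DINP 15 were below the control median, with overlap of the groups, and the drop was a log2 fold change of -0.55 (SE 0.16, adjusted p = 0.0171). At DINP 150 it was -0.44 (adjusted p = 0.156). Without the 7 mice the DINP 15 value did not pass, -0.43 (adjusted p = 0.0644). Nuak1, a kinase of the AMPK family (chr10:84370905-84440597, minus strand), was listed at 0 or 1 rounded TPM in 10 of 14 control mice and in all 14 at DINP 150, -0.33 (adjusted p = 0.136). Tgfb1, the main fibrogenic cytokine, was one of the few members not below 0 at DINP 150, 0.24 (adjusted p = 0.619), with -0.23 (adjusted p = 0.483) at DINP 15. Without the 7 mice these were 0.40 (adjusted p = 0.339) and -0.071 (adjusted p = 0.872). Vim (vimentin, of mesenchymal cells) was 8.90, 13.5 and 41.3 in controls and 8.31, 12.2 and 20.9 at DINP 150, -0.22 (adjusted p = 0.630), and -0.011 (adjusted p = 0.982) in the 47 mice with higher totals.

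**Figure D4:**
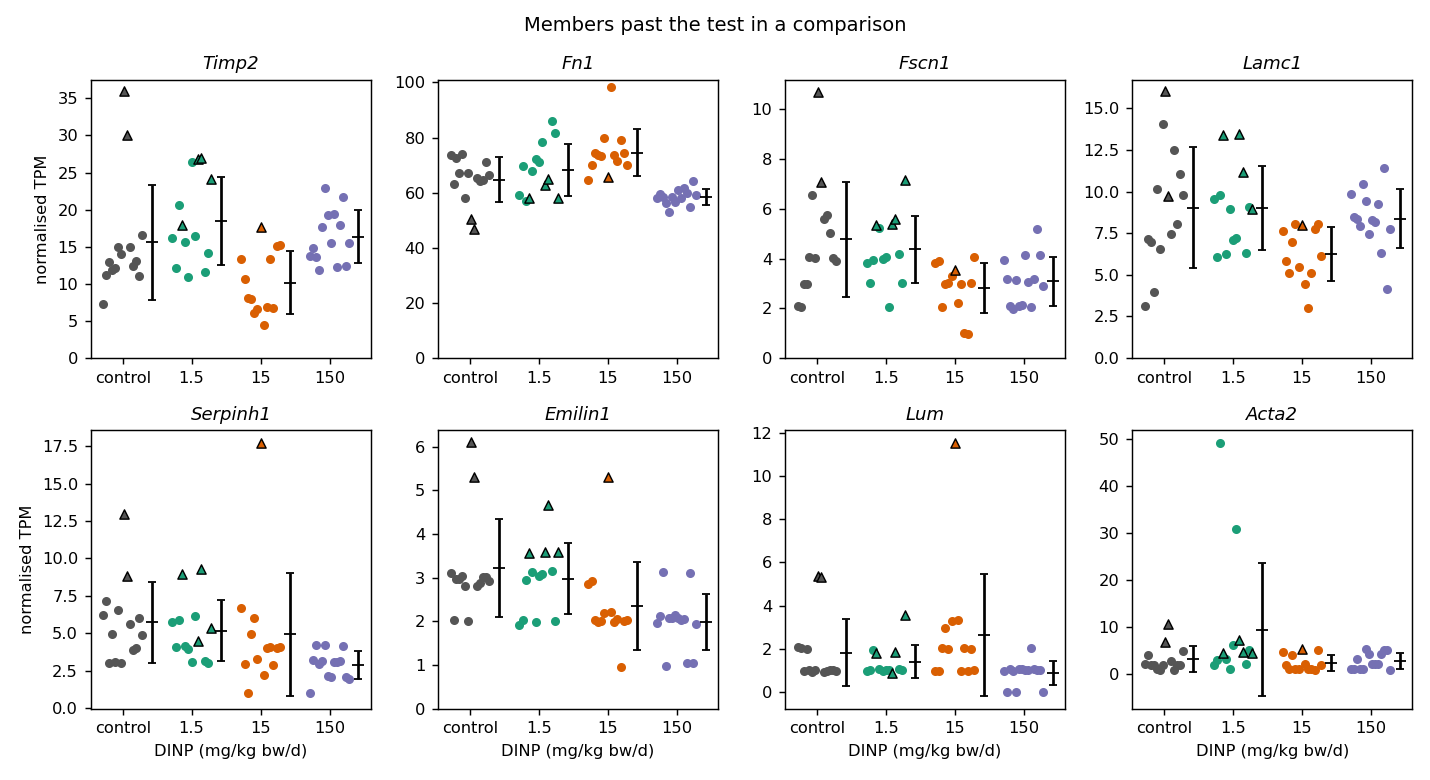
Normalised TPM of the 8 members that passed the test in at least 1 of the 6 comparisons, in each mouse and by DINP group in mg/kg bw/d. Points are mice, triangles mark totals under 900000, and bars beside each group are the mean ± SD. Timp2 is lowest at DINP 15, Fn1 lies lower at DINP 150 than at DINP 15 in every mouse, and the highest Acta2 values are 2 mice at DINP 1.5.

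Direct comparisons between doses gave most of the calls. From DINP 1.5 to DINP 15, Acta2, Fscn1, Lamc1 and Timp2 were lower, 4 of 38 (10.5%), where 10.5% of all genes were called lower and 21.4% called in all (7.15% with a log2 fold change beyond 0.5, as 2 members). The Fscn1 difference, -0.50 (adjusted p = 0.0257), did not pass without the 7 mice, -0.35 (adjusted p = 0.149), nor with the covariate, -0.35 (adjusted p = 0.0806), nor in single fits without replicate 13 at DINP 1.5 (adjusted p = 0.0522) or replicates 10 or 11 at DINP 15 (0.0517 and 0.0543). Without replicate 7 at DINP 15, 9 members were called, in a fit where the share of all genes called was not counted. The members had 31 of 38 log2 fold changes below 0 and a median of -0.20, against -0.011 over all genes. In the other 47 mice these were 27 of 38 and -0.096, and with the total as a covariate 24 of 38 and -0.049. From DINP 1.5 to DINP 150, Emilin1, -0.42 (adjusted p = 0.0475), and Fn1, -0.21 (adjusted p = 0.0481), were lower, 2 of 38, where 2.06% of all genes were called lower and 4.61% called in all (1.64% beyond 0.5, and 0 members). Each of these calls was lost in 21 of 27 fits that left out 1 mouse. Without the 7 mice Emilin1 did not pass, -0.28 (adjusted p = 0.138), while Fn1 did, -0.27 (adjusted p = 0.00311), and with the covariate they were -0.24 (adjusted p = 0.295) and -0.33 (adjusted p = 1.9e-05). There 35 of 38 were below 0, with a median of -0.30, and without the 7 mice, 4 of which belonged to the DINP 1.5 group, 27 were, with a median of -0.10. With the total as a covariate 19 of 38 were below 0, with a median of 0.00099. From DINP 15 to DINP 150, Fn1 and Lum were lower and Timp2 higher, 3 of 38, where 20.0% of all genes were called, 10.1% lower and 9.85% higher (6.73% beyond 0.5, and 2 members). Members below 0 numbered 27 of 38, with a median of -0.090; without the 7 mice it was 20 of 38 and -0.016, and with the covariate 20 of 38 and -0.0061. Lamc1 was called higher as well without the 7 mice (4 members, 19.2% of all genes), and Lamc1 and Tgfb1 with the covariate (5 members, 23.4%).

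Genes of the same pathways outside the member list passed at shares near or below those of all genes. Of 72 tested in 5 lists, 1 passed at DINP 1.5 (1.39%, all genes 1.20%), 8 at DINP 15 (11.1%, all genes 14.2%) and 0 at DINP 150 (all genes 2.17%) with limma. At an unadjusted p under 0.05 there were 9, 18 and 11 of 72, where 12.3%, 27.0% and 14.0% of all genes had one. Of 17 tested ligands, receptors, SMAD proteins and targets of transforming growth factor beta, none passed at DINP 1.5, 15 or DINP 150 with limma, with 0, 4 and 2 at an unadjusted p under 0.05, and their median log2 fold change at DINP 150 was -0.045. Tgfbi, a matrix protein induced by the cytokine, and Tgfbr2, its type II receptor, were lower at DINP 150 than at DINP 15, -0.62 (adjusted p = 0.00247) and -0.49 (adjusted p = 0.0111), which is 2 of 17 where 10.1% of all genes were lower. Tgfbi and Tgfbr1, the type I receptor, were higher at DINP 15 than at DINP 1.5, 0.44 (adjusted p = 0.0386) and 0.47 (adjusted p = 0.00390), in a comparison that called 21.4% of all genes. Among 16 tested enzymes and chaperones of collagen synthesis, P4ha1, a prolyl hydroxylase subunit, and Bmp1, the procollagen C-proteinase, fell at DINP 15, -0.42 (adjusted p = 0.0161) and -0.24 (adjusted p = 0.0379), and none passed at DINP 150 (2 at an unadjusted p under 0.05).

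Of 14 tested matrix receptors, Itgb5, an integrin subunit, fell and Sdc2, a syndecan, rose at DINP 15, -0.43 (adjusted p = 0.0155) and 0.33 (adjusted p = 0.0201), Sdc1 fell at DINP 1.5, -0.48 (adjusted p = 0.0183), and none passed at DINP 150 (2 at an unadjusted p under 0.05). Of 16 other matrix proteins tested, Col5a3 and Spon2 fell and Efemp1 (fibulin-3) rose at DINP 15, -0.49 (adjusted p = 0.00235), -0.88 (adjusted p = 0.0277) and 0.51 (adjusted p = 0.0358). At DINP 150 13 of these 16 were below 0 with none called (2 at an unadjusted p under 0.05). Of 9 other proteases and inhibitors tested, Adam9 rose at DINP 15, 0.47 (adjusted p = 0.0235).

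Markers of the cell types that make matrix were set beside the members. The 13 stellate cell markers outside the member list had summed medians of 183 in controls, 187 at DINP 1.5, 185 at DINP 15 and 179.7 at DINP 150, with sums from 138 to 231 over all mice, and none of the 9 tested passed against control, while Pdgfrb and Ngfr were at a median of 0 in all groups. Endothelial markers (14 genes) summed to medians of 264, 259, 231 and 263 in the same order, and at DINP 15 Pecam1 and Egfl7 fell, -0.52 (adjusted p = 8.67e-04) and -0.49 (adjusted p = 0.00350). These were 2 of 13 endothelial markers tested, near the 14.2% of all genes called at that dose. Timp2 and Fscn1 were lower at the same dose, and the part of endothelial cells in those values was not tested. Macrophage markers had summed medians of 109 in controls and 109.5 at DINP 150, with Csf1r lower at DINP 15, -0.60 (adjusted p = 0.0114). At DINP 150 against control, 8 of the 10 macrophage markers tested were below 0 (51.8% of all genes). Their median log2 fold change was -0.21, with none called. The lower doses gave similar counts, 9 of 10 at DINP 1.5 (median -0.16) and 7 of 10 at DINP 15 (median -0.095). Markers of other leukocytes (11 genes) summed to medians of 21.0, 17.5, 17.3 and 15.5 in the order of the doses. All 5 tested were below 0 at DINP 150 against control, with a median of -0.40 and none called. So were 4 of 5 at DINP 1.5 (median -0.069) and 5 of 5 at DINP 15 (median -0.20). The part of macrophages and other leukocytes in the member values was not tested. The 10 portal fibroblast markers other than Eln summed to 8.66, 15.7, 10.1 and 8.73, so the median was highest at DINP 1.5. Of the 4 portal markers tested, Eln among them, none passed a comparison. All 4 were below 0 in both 15 and 150 against DINP 1.5 (51.5% and 51.8% of all genes). Each time 3 of them had an unadjusted p under 0.05 (33.6% and 18.0% of all genes). The members called in those comparisons were also lower, and the part of portal fibroblasts in them was not tested. Replicates 9, 4, 13 and 10 at DINP 1.5, among the 7 mice, ranked 1, 2, 4 and 5 of their group in the portal sum. At DINP 150 against control, 3 of the 4 portal markers were below 0, with a median of -0.35 and none called. Against control, 0 of 4 were below 0 at DINP 1.5 (median 0.22) and 4 of 4 at DINP 15 (median -0.26). Smooth muscle markers (7 genes, without Acta2) summed to medians of 19.8, 20.6, 19.5 and 27.8. Tagln was lower at DINP 15 than at DINP 1.5, -0.82 (adjusted p = 0.0226), as Acta2 was, and Tpm2 was higher at DINP 150 than at DINP 1.5, 0.76 (adjusted p = 0.0499). Hepatocyte markers (8 genes) summed to medians of 34609 in controls, 35622 at DINP 1.5, 36323 at DINP 15 and 33282 at DINP 150. At DINP 15, where Fn1 rose, Ttr (transthyretin) rose too, 0.42 (adjusted p = 0.0231). It was 1 of 8 hepatocyte markers tested, near the 14.2% of all genes called at that dose, with 3 of the 8 below 0, and the part of hepatocytes in the Fn1 values was not tested. Adipocyte markers (7 genes) summed to 2981 and 2886, with Adipoq, Plin1 and Lep at a median of 0 in every group, and Cfd, complement factor D, was higher at DINP 150, 2.07 (adjusted p = 0.00335).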

How the data were processed

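RNA of the medial liver lobe of 54 mice was sequenced by the authors from QuantSeq 3′ mRNA-Seq V2 FWD libraries. Per the labels, the reads went through STAR, RSEM and Salmon on GRCm38. The deposited signal values, 1 column per mouse with replicates not pooled, are named as TPM in the deposited table. In every column they were whole multiples of a single step (0.764 to 1.11; 100.0% within a tolerance of 0.001), which is what whole-number TPM scaled by a size factor would give. Such values are not reads, so no count test was used and depth is unknown; low genes move in steps of about 1.

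Groups came from the labels. Values were tested as log2(value + 1) with limma 3.58.1 (R 4.3.3; lmFit and eBayes with trend, all 4 groups in 1 fit) on the 11431 entries with a mean of at least 1, with Benjamini-Hochberg adjustment over all of them; an adjusted p under 0.05 was called. The code was tested on simulated data: 179 of 193 genes shifted by 1 (log2) at DINP 150 were recovered in the comparison with control, with 8 unshifted genes called. Full statistics are given for the 8 members called in any of the 6 comparisons and for the next 4 by p at DINP 150 against control, 12 in all. Others are given by ranges, counts or single values. The members, their roles, the pathway lists and the marker lists were chosen with earlier results of these data known, so no list was tested as a set. Gene positions are from GENCODE M21 (GRCm38), and upstream sequences from RefSeq (GRCm38.p6), without the 50 bases after the start. Alternatives changed the pseudocount, the filter, the scaling, the samples fitted, the weights, the test and the call rule. Leaving out the 7 samples with totals under 900000, and adding log2 of the total as a covariate, were chosen after seeing the data.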

Additional observations from a re-analysis of the deposited data

Results flagged for a closer look

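Direct tests between doses set 9 differences apart, each with limma and Benjamini-Hochberg adjustment, because the response of a member at one dose differed from that at another. From DINP 1.5 to DINP 15, Acta2 (log2 fold change -1.05), Timp2 (-0.84), Fscn1 (-0.50) and Lamc1 (-0.46) were lower, in 10, 12, 12 and 13 of 13 mice below the DINP 1.5 median. These are 4 of 38 members, where 21.4% of all genes were called. From DINP 1.5 to DINP 150, Emilin1 (-0.42) and Fn1 (-0.21) were lower, in 12 and 14 of 14 mice, 2 of 38 members against 4.61% of all genes. From DINP 15 to DINP 150, Fn1 (-0.34) and Lum (-0.78) were lower, in 14 and 13 of 14 mice, and Timp2 (0.71) was higher, in 14 of 14, 3 of 38 members against 20.0% of all genes. The adjusted p of the Emilin1 and Fn1 differences from DINP 1.5 to DINP 150 was above 0.05 in 21 of 27 fits each that left out 1 mouse. Their highest adjusted p in those fits was 0.0902 and 0.0952. From DINP 1.5 to DINP 15, Acta2, Fscn1 and Lamc1 did not pass in 2, 3 and 4 of 26 such fits, and Fscn1 (adjusted p = 0.149) and Lamc1 (adjusted p = 0.181) did not pass without the 7 mice with totals under 900000, nor with the total as a covariate (adjusted p = 0.0806 and 0.0916).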

How the results depend on the processing

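Called members numbered 0, 3 and 2 at DINP 1.5, 15 and DINP 150 against control, and 4, 2 and 3 in 15 against 1.5, 150 against 1.5 and 150 against 15. Leaving out 1 mouse at a time gave 0 to 0, 1 to 5, 1 to 3, 3 to 9, 0 to 2 and 3 to 4. For the leave-outs and the settings below, other than the 47 mice, the covariate and the fold change rule, the share of all genes called was not counted. Whether all genes moved as the members did is therefore unknown there. For DINP 15 against control, fitting only the 2 groups gave 0, quality weights 1, the 47 mice with totals of at least 900000 1 and the total as a covariate 0. For DINP 150 against control, no filter gave 1, a minimum mean of 5 gave 0, the same total in every sample 4, the Wilcoxon rank-sum test 1, a log2 fold change beyond 0.5 1 and the covariate 1. For 15 against 1.5, the minimum mean of 5, the fold change rule, the 47 mice and the covariate each gave 2. For 150 against 1.5, a pseudocount of 5, the minimum mean of 5, the Wilcoxon test, the 47 mice and the covariate each gave 1, no filter and the fold change rule 0, the 2 groups alone 5 and the weights 4. For 150 against 15 the covariate gave 5. The replicate numbers did not pair the mice (mean correlation of deviations -0.0025 over 79 pairs, 12.7% above 0.1), and with the replicate block the count was 0 for 150 against 1.5, 3 for 15 against 1.5 and as above for the others. The same total in every sample moved the median of all genes by up to -0.079, with the member median at DINP 150 at -0.33. At DINP 150 against control, Acta2 and Lamc1, near 0, turned positive with the 47 mice (0.15 and 0.058), with the covariate (0.097 and 0.20) and in single leave-outs (from -0.16 to 0.042 and from -0.12 to 0.037). The cause was not tested. Timp2 passed under all 13 settings, and in all leave-outs, for 15 against 1.5 and for 150 against 15. Of 299 values of member results under 13 settings, 244 kept direction and side of the threshold, 44 lost and 7 gained the call, and 4 changed sign. Members with means under 5 rest on a few rounded TPM.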
